A study of Mus musculus with 72 samples.

Results

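Blood transcripts of mice given 1 Gy of neutrons were compared directly with those of mice given the same nominal dose of x-rays, 1 day after exposure. The comparison rests on the 12 arrays labelled Neutron_1Gy_day1 (6 mice) and X-ray_1Gy_day1 (6 mice), chosen by title alone out of 72 arrays in the series, with 1 mouse on each array. All mice were young adult males of the C57BL/6 strain. The neutron beam was built to resemble the spectrum of an improvised nuclear device and carried some gamma rays. The x-rays came from an orthovoltage tube at a higher dose rate. Training in restraining holders is described for the neutron and sham-irradiated mice and not for the x-ray mice. Blood was drawn from the heart at death, so a mouse contributes 1 time point only, and its RNA was cleared of globin transcripts before it was labelled with a single dye. As points of reference, levels are also given for 5 unirradiated mice and 5 mice given 4 Gy of x-rays, killed on the same day. The question was whether the kind of radiation, at a matched nominal dose and time, left different transcript levels in blood.

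Neutrons deposit their energy through recoil protons along short dense tracks, whereas x-rays spread ionizations more evenly through a cell, and dense tracks are known for breaks in DNA that are harder to repair. Among blood cells, naive B and T lymphocytes die readily after irradiation, while mature neutrophils, platelets and red cells, which no longer divide, resist it. Interferon-stimulated genes answer type I interferon, which cells release when nucleic acids appear in the wrong compartment, through a factor complex that binds a repeated GAAA element near their start sites.

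Levels are log2 of the background-corrected signal of a probe, relative to the median detected probe of the same array, so a level of 0 equals that median and a difference of 1 equals 2-fold. Levels of different genes cannot be set against each other, since probes differ in brightness. A gene was called different when limma gave p below 0.001 and a false discovery rate below 5%. The share of spots well above background was 60.8 to 63.0% on the neutron arrays and 53.5 to 64.6% on the x-ray arrays (p = 0.387, exact permutation test, 2-sided), with the lowest values on x-ray replicates 2 and 3. Blood markers (Ptprc, Cd79a, Ms4a1, Cd3d, Cd3e, Cd3g, S100a8, S100a9, Csf3r, Csf1r, Pf4, Ppbp, Slc4a1, Alas2, Ncr1 and Klrb1c) were well above background on 12 of 12 arrays, and the monocyte gene Ly6c2 on 0 of 12. Pairs of arrays correlated at a median of 0.95 within the neutron group, 0.96 within the x-ray group and 0.95 between the groups.

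The groups were not scanned together, and this touches every result. Neutron replicates 1 to 4 were scanned on a date that holds no array of the x-ray group, x-ray replicates 2 and 3 on another that holds no neutron array, and 2 neutron and 4 x-ray arrays shared the remaining date. Liver transcripts also varied between mice. The mean level of the hepatocyte list was -0.03 in neutron replicate 4 and 5.94 to 7.34 in the other neutron mice. It was 2.93 and 2.32 in x-ray replicates 2 and 3 against 4.97 to 6.68 in the other x-ray mice. An exact permutation test between the groups gave p = 0.636, which does not show that their liver content was equal. The median difference of the list was 1.79 without neutron replicate 4 and -0.36 without x-ray replicates 2 and 3. Neutron replicate 4 also stood apart in transcripts of the exocrine pancreas, with a summed marker level of 9.91 against -0.05 to 0.76 in the other neutron mice and -0.69 to 0.06 in the x-ray mice.

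B cell, T cell and MHC class II transcripts were lower and interferon-stimulated transcripts higher in blood after neutrons than after x-rays. Of 10863 genes tested, 983 were called (9.05%), 144 higher (1.33%) and 839 lower (7.72%) after neutrons than after x-rays, so 85.4% of the called genes were lower. The difference was at least 2-fold for 478 called genes, 87 higher and 391 lower, and at least 4-fold for 32, 5 higher and 27 lower. The median difference over all genes tested was 0.13. In 256 genes (2.36% of those tested) all 6 neutron mice lay above all 6 x-ray mice, and in 1080 genes (9.94%) all 6 lay below. Counts within the gene lists below are to be read beside these shares over all genes.

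How many genes were called depended on the scan dates, the background correction and the centring. With scan date as a block in the limma fit 0 genes were called, although 1882 had an unadjusted p below 0.05. Within the shared date alone (2 neutron and 4 x-ray mice) 10 were called, 7 of them lower, and 1999 had an unadjusted p below 0.05. Each other date holds a single group, so both of these fits take their differences from the same 2 neutron and 4 x-ray mice. Their estimates are therefore the same and do not back each other up. These mice also helped to choose the genes. In that estimate 144 of the 144 higher genes were still higher (median 0.89). Of the 839 lower genes 839 were still lower (median -0.89). Centring on the spike-in transcripts, which were added to the RNA in known amounts, moved the median of all genes from 0.13 to 0.38 and left 82 called genes, 46 higher and 36 lower, or 43.9% lower. A normexp background correction called 23 genes, 6 higher and 17 lower. Leaving out x-ray replicate 2 called 635 genes, and leaving out both x-ray arrays of the third date 371. Scan date and radiation overlap in these 6 mice only, and for the other 6 their parts in a difference cannot be told apart.

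**Figure D1:**
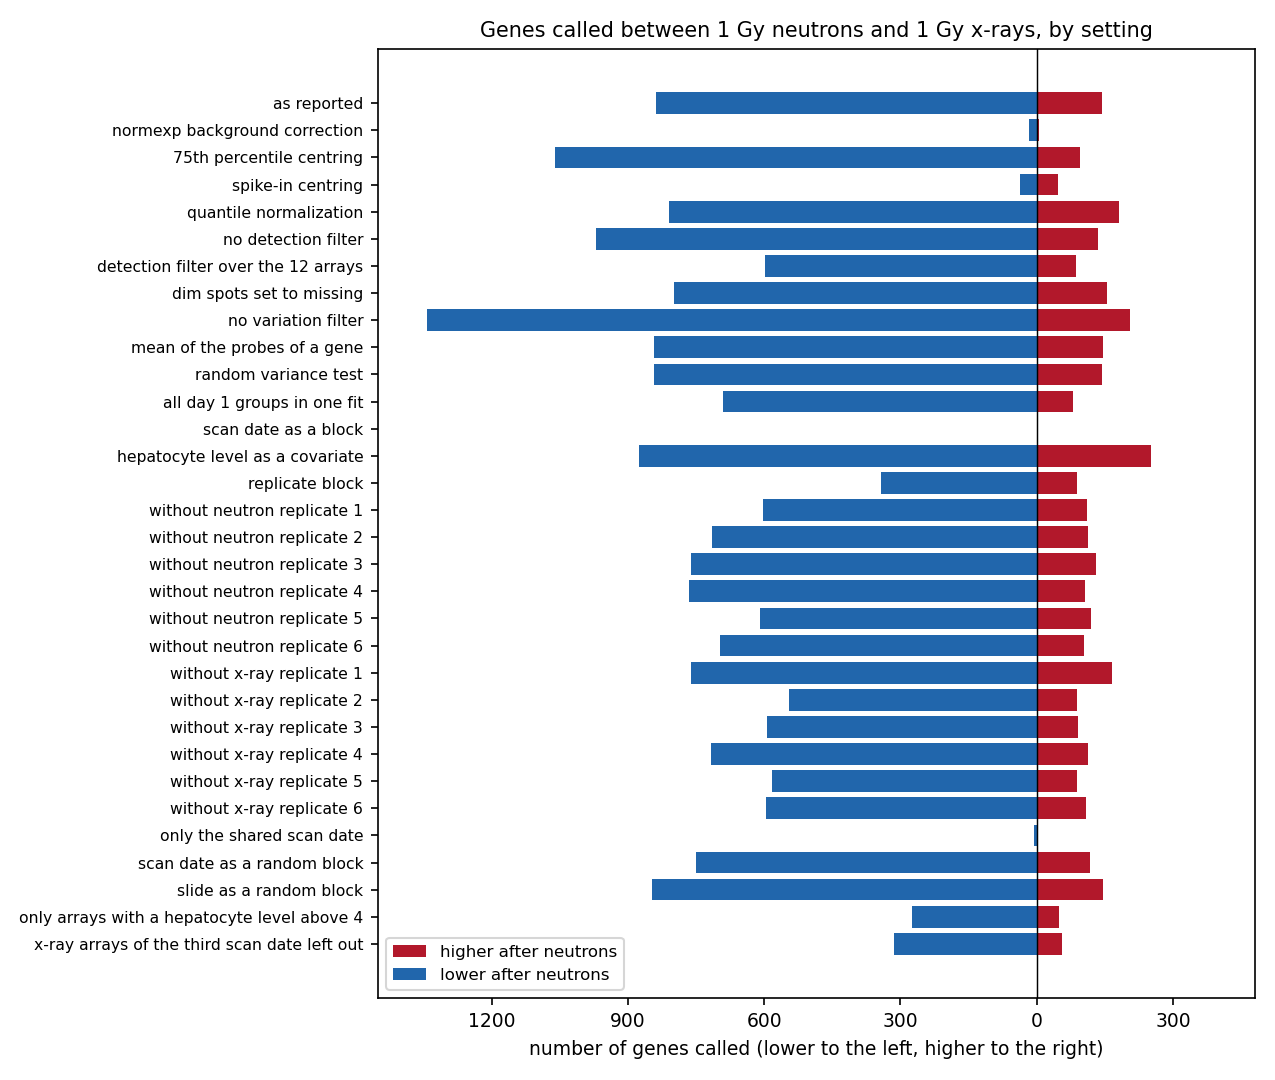
Number of genes called between 1 Gy neutrons and 1 Gy x-rays at day 1 under each processing setting. Bars to the right count genes higher after neutrons and bars to the left genes lower after neutrons, on a linear axis, and the counts as reported are 144 and 839, and with scan date as a block 0 genes are called.

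The genes with the largest differences were, among those higher after neutrons, Slfn4, Lcn2, Slfn3, Ifit3b, Ifit3, Oasl2, Mrgpra2b, Mrgpra2a, Oasl1 and Oas3, and among those lower, Gm5106, Vpreb3, H2-Eb2, H2-Ob, Pla2g2d, Tnfrsf13c, Ccr6, Cr2, Prss12 and Trnp1. These were required to have groups that do not overlap and a probe well above background in every mouse of the higher group. Genes were taken to follow liver transcripts at a correlation of 0.5 or more with the hepatocyte list. It was taken over the 44 other arrays of days 1 and 7, and none of the 20 reached it. Genes that fall as liver transcripts rise are not counted by this rule, so it does not clear the 20 of liver admixture. Of the 941 tested genes that did follow liver transcripts in this sense (8.66%), 3 were called, and all 3 were higher. With neutron replicate 4 left out, 872 genes were called.

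**Figure D2:**
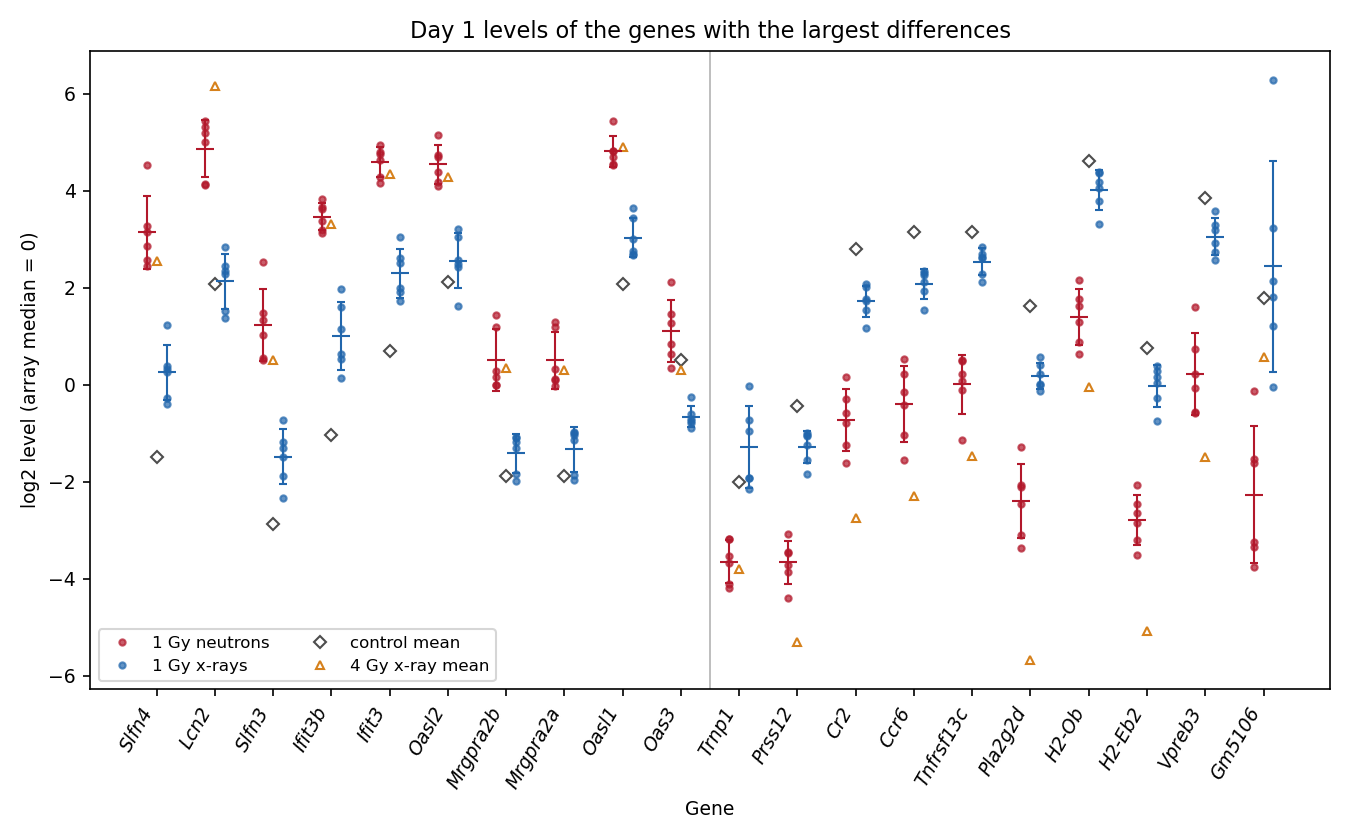
Levels of the 20 genes with the largest differences at day 1, on a log2 scale where 0 is the array median. Circles are mice (6 in each group), horizontal marks and bars are means and SDs, diamonds are means of 5 controls and triangles means of 5 mice given 4 Gy x-rays, and the 2 groups do not overlap in any of the 20 genes.

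Interferon-stimulated genes were higher after neutrons. Of 21 tested, 13 were called higher and 0 lower, with a median difference of 1.23 against 0.13 over all genes, and 21 of 21 had a positive sign. The mean level of the list was 2.14 to 3.02 in the neutron mice (median 2.51) and 0.99 to 1.85 in the x-ray mice (median 1.27), so the groups did not overlap. Controls had a median of 0.82 and mice given 4 Gy x-rays one of 2.13. The list median was 1.28 within the shared scan date, where 1 of 21 members was called, and ranged from 1.08 to 1.54 over all settings.

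The largest difference in that list was that of Ifit3, which encodes a protein that helps Ifit1 hold foreign RNA. Its level was 4.15 to 4.94 in the neutron mice (median 4.70) and 1.72 to 3.05 in the x-ray mice (median 2.25), a difference of 2.30 (SE 0.24, adjusted p = 0.000439) or 4.92-fold. Ifit1, which binds RNA caps that lack a methyl group, was at 2.01 to 2.97 (median 2.52) after neutrons and 0.56 to 1.51 (median 0.79) after x-rays, where the highest value belonged to replicate 2 alone. That was a difference of 1.66 (SE 0.21, adjusted p = 0.000774). Its neighbour Ifit3b, close to Ifit3 in sequence so that their probes may share signal, had a difference of 2.46.

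The oligoadenylate synthetase family, whose active members make the messenger that switches on RNase L, was also higher after neutrons in each of the members named here. Oasl2 stood at 4.10 to 5.16 after neutrons (median 4.54) and 1.62 to 3.21 after x-rays (median 2.54), with a difference of 1.98 (SE 0.27, adjusted p = 0.00112). Oasl1, which holds back translation of Irf7, stood at 4.54 to 5.44 (median 4.76) and 2.69 to 3.64 (median 2.88), a difference of 1.78 (SE 0.22, adjusted p = 0.000708). For these genes the means were 4.29 and 4.91 in mice given 4 Gy x-rays, beside 4.55 and 4.81 in the neutron mice. Oas3 behaved otherwise toward the controls. Its mean was 0.52 in controls, -0.66 in the x-ray mice, 1.11 in the neutron mice and 0.31 in mice given 4 Gy x-rays, so that its difference of 1.77 (SE 0.27, adjusted p = 0.00171) held a lower mean after x-rays as well as a higher one after neutrons.

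Promoter sequences of interferon-stimulated members are shown because these genes were higher together and a known element occurs in some of them. The element was searched on both strands as GAAA, any 2 bases and GAAA again (TTTC, any 2 bases and TTTC on the other strand), in 300 bases around each start site (250 before and 50 after) in RefSeq promoters of build GRCm38.p6, where 3.99% of 27025 genes hold it at least once. Of the 21 tested members of the list, 16 had a promoter in that table and 10 of these held the element. Of the 13 called members, 10 had a promoter there and 6 of these held it. Promoters were at hand for 76.2% and 76.9% of these members. Their counts are therefore not compared with each other or with all genes. Since 94 of the 144 genes called higher (65.3%) and 434 of the 839 called lower (51.7%) had a promoter there, less than 80%, a comparison of shares between these sets is void and was not made. The stretches below end before the start site and read 5′ to 3′ on the strand of the gene, with the element in capitals.
Ifit3, chr19:34583349-34583448, plus strand: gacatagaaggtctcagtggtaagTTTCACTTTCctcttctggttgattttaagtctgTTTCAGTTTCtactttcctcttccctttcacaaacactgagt
Ifit1, chr19:34640759-34640858, plus strand: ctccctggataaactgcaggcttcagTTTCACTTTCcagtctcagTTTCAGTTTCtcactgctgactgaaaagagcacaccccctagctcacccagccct
Ddx60, chr8:61928007-61928086, plus strand: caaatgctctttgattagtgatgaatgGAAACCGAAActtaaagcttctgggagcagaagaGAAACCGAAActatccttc
Oas3, chr5:120777660-120777759, minus strand: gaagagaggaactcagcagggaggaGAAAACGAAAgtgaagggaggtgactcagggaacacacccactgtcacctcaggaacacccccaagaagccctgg

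Ifit3 holds the element at -156 and -122 from the start, Ifit1 at -104 and -85, Ddx60, which encodes a helicase of antiviral defence, at -53 and -19, and Oas3 at -75. The 10-base matches of Ifit3 and Ifit1 have the same letters in the same order, although the spacing differs. No match to these letters was found in the window of Slfn4. None was recorded for Oasl1 or Oasl2, which alone does not tell whether a promoter was at hand. A match is a description of the letters, and binding was not measured.

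Schlafen genes form a family that interferon also induces and that restrains cell growth and translation. After neutrons 3 of 5 tested members were called higher, against 1.33% of all genes, and all 5 had a positive sign (median 1.14). Slfn4 had the largest difference of all genes called higher. Its level was 2.46 to 4.53 in the neutron mice (median 3.01), -0.39 to 1.22 in the x-ray mice (median 0.29), and -1.48 on average in controls. That made 2.89 (SE 0.36, adjusted p = 0.000693), or 7.40-fold, between neutrons and x-rays, and 2.84 within the shared scan date. Slfn3, with 0.52 to 2.52 (median 1.18) and -2.34 to -0.72 (median -1.39), differed by 2.73 (SE 0.35, adjusted p = 0.000818). Slfn1, with -0.08 to 1.57 and -0.64 to -0.38, differed by 1.14 (SE 0.24, adjusted p = 0.0058). Slfn2 and Slfn8, the remaining members tested, were not called. The family median stayed positive under each setting run, between 0.67 and 1.91.

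B cell genes were lower after neutrons. Of 20 tested, 15 were called lower and 0 higher (median -1.71), and 20 of 20 had a negative sign. The mean level of the list was -0.36 to 1.42 in the neutron mice and 2.12 to 2.72 in the x-ray mice, without overlap, while controls had a median of 3.55 and mice given 4 Gy x-rays one of -0.69. In blood as a whole, fewer cells of a type and less of a transcript per cell cannot be told apart. The median was -1.77 within the shared scan date, where 2 members were called, and -1.33 under spike-in centring, where 5 were called and 2 of the 20 turned positive.

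Tnfrsf13c, the receptor for the survival factor BAFF, was at -1.14 to 0.51 after neutrons (median 0.16) and 2.12 to 2.85 after x-rays (median 2.64), a difference of -2.53 (SE 0.27, adjusted p = 0.000439). Cr2, the complement receptor that lowers the threshold of B cell activation, was at -1.62 to 0.15 and 1.18 to 2.08, a difference of -2.45 (SE 0.28, adjusted p = 0.000461). The means of both ran downward from controls (3.15 and 2.80) over the x-ray mice (2.54 and 1.72) and the neutron mice (0.01 and -0.73) to mice given 4 Gy x-rays (-1.47 and -2.75). Fcer2a, the low-affinity IgE receptor, differed by -2.33, and the coreceptor Cd72 by -1.50. Vpreb3, a partner of immature B cell receptors, was at -0.58 to 1.61 after neutrons and 2.58 to 3.59 after x-rays, 7.11-fold lower after neutrons (SE 0.35 on the log2 scale, adjusted p = 0.000693). Ccr6, a chemokine receptor of B cells, differed by -2.48.

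With MHC class II genes, B cells and other presenting cells show peptides to helper T cells. Of 10 tested, 7 were called lower, against 7.72% of all genes, with a median of -1.67 and a negative sign in 10 of 10. List levels were 0.52 to 2.58 after neutrons and 3.11 to 3.78 after x-rays, beside a control median of 4.35. Ciita, the activator that the class II promoters depend on, was at -3.61 to -2.25 after neutrons and -1.21 to 0.11 after x-rays, a difference of -2.25 (SE 0.27, adjusted p = 0.000561). H2-Ob, a chain of the molecule that tunes peptide loading, was at 0.63 to 2.17 and 3.32 to 4.39, a difference of -2.62 (SE 0.28, adjusted p = 0.000439). Its partner H2-Oa differed by -1.86, the loading chaperone H2-DMb2 by -1.99 and the beta chain H2-Eb2, which is not in the list, by -2.76. Probes of these related genes may share signal. Neither group of mice overlapped the other in any of these 5 genes. The list median stayed between -1.88 and -1.29 over the settings run, with 0 members called within the shared scan date, 1 with normexp, 2 under spike-in centring, 5 without x-ray replicate 2 and 9 without neutron replicate 4.

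Pla2g2d, a secreted phospholipase of lymphoid tissue that dampens inflammation, was at -3.37 to -1.27 after neutrons (median -2.28) and -0.14 to 0.58 after x-rays (median 0.11). The difference was -2.57 (SE 0.31, adjusted p = 0.000623), against means of 1.63 in controls and -5.68 after 4 Gy x-rays. Of the genes named here Gm5106 had the largest estimate, -4.71 (SE 0.93, adjusted p = 0.00492). However, its x-ray mice spread from -0.05 to 6.29 and its neutron mice from -3.77 to -0.12. The groups were thus separated by less than 0.1. Prss12 and Trnp1, of which no role in blood is given here, differed by -2.38 and -2.36.

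T cell genes were called lower in 17 of 23 tested members and higher in 0 (median -1.30), against 7.72% and 1.33% of all genes. The list levels were 0.97 to 2.18 in the neutron mice and 2.56 to 3.24 in the x-ray mice, and here the x-ray median (2.82) was above that of the controls (2.64), unlike for B cells. Cd8a, the coreceptor of killer T cells, was at -1.50 to -0.26 after neutrons and 0.81 to 1.52 after x-rays, a difference of -1.97 (SE 0.22, adjusted p = 0.000456). Ccr7, which guides naive T cells into lymph nodes, was at 2.96 to 4.17 and 4.82 to 5.62, a difference of -1.81 (SE 0.24, adjusted p = 0.000924). Themis, a brake and tuner of T cell receptor signals, differed by -1.78 and Trat1, a partner of that receptor, by -1.53. Cd4 was the single member with a positive sign, 0.62, and was not called. Under spike-in centring the list median was -0.92 and 2 members were called, and within the shared scan date it was -1.03 with 0 called.

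Genes of NK and cytotoxic cells were not called lower as many B and T cell genes were. Of 16 tested, 0 were called, and 12 had a negative sign. The median was -0.14, against 0.13 over all genes. It turned positive in 3 of 30 settings, to 0.19 under spike-in centring. List levels overlapped, with 1.08 to 2.58 after neutrons and 1.49 to 2.79 after x-rays. Ncr1, the activating receptor that defines NK cells, was at -0.56 to 0.93 and -0.56 to 0.78, a difference of 0.14 (SE 0.31, adjusted p = 0.793), and Klrb1c, the NK1.1 antigen, differed by -0.03 (SE 0.33, adjusted p = 0.961).

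**Figure D3:**
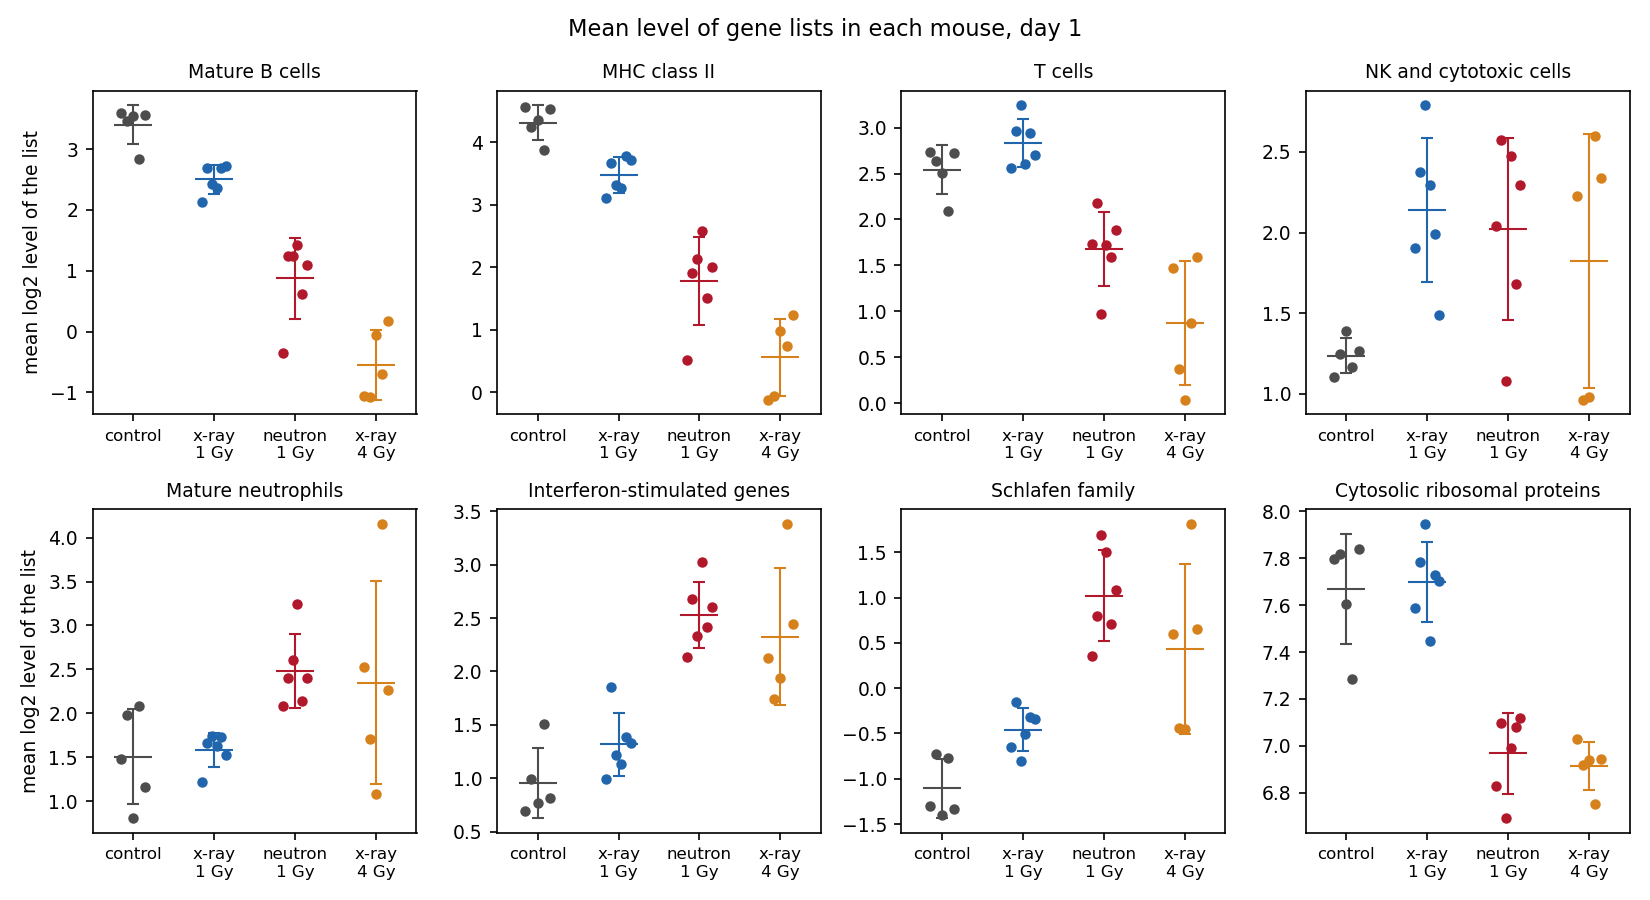
Mean log2 level of 8 gene lists in each mouse at day 1, with the array median at 0 and a separate axis for each list. Circles are mice (6, or 5 for controls and 4 Gy x-rays), bars are means and SDs. The neutron and x-ray mice given 1 Gy do not overlap for the lists of B cells, MHC class II, T cells, mature neutrophils, interferon-stimulated genes, Schlafen genes and ribosomal proteins, and overlap for NK and cytotoxic cells.

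Neutrophil lists had higher levels after neutrons, though most members were not called. Among genes of mature neutrophils, 4 of 13 were called higher and 0 lower (median 0.96), and list levels were 2.09 to 3.24 after neutrons and 1.22 to 1.75 after x-rays. Il1r2, the decoy receptor that soaks up interleukin 1, was at 1.22 to 2.26 after neutrons and -0.53 to 0.68 after x-rays, a difference of 1.54 (SE 0.24, adjusted p = 0.00194). Il1b, which encodes that cytokine, was at 3.44 to 4.60 and 2.21 to 2.89, a difference of 1.26 (SE 0.22, adjusted p = 0.00287). Fpr2 and Fpr1, receptors for bacterial formyl peptides, differed by 1.03 and 1.02. S100a8 and S100a9, the most abundant neutrophil alarmins, were not called, with differences of 0.75 and 0.27. Within the shared scan date the list median was 0.70 with 0 of 13 members called. With normexp it was 0.54 with 0 of 15 called.

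Neutrophil granule genes had 2 of 10 members called higher, Lcn2 and Mmp9, with a median of 1.07. Lcn2, which starves bacteria of iron and is made by neutrophils and, in the acute phase, by liver, was at 4.12 to 5.44 after neutrons (median 5.10) and 1.38 to 2.84 after x-rays (median 2.31). The difference was 2.73 (SE 0.32, adjusted p = 0.000461), beside means of 2.08 in controls, 2.14 in the x-ray mice and 6.16 in mice given 4 Gy x-rays. Mmp9, a gelatinase, differed by 1.11. Within the shared scan date 0 of 10 granule members were called (median 0.73), and 2 had a negative sign. The granule list in neutron replicate 4 was at 3.36, while the other neutron mice had at most 1.36. Mrgpra2a and Mrgpra2b, receptors of one family so alike that their probes may share signal, differed by 1.83 and 1.93.

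Monocyte genes had 1 of 15 members called, Fcgr4, an Fc receptor of patrolling monocytes, with a difference of 1.19 (SE 0.23, adjusted p = 0.00425) and a list median of 0.68. Csf1r and Ccr2, which mark monocytes in general and the inflammatory subset, differed by 0.67 and 0.53 and were not called. Among platelet and megakaryocyte genes 0 of 15 were called (median 0.52), with Pf4 at -0.17 and Ppbp at 0.18. Toll-like receptors, the sensors of microbial products, had 0 of 7 called (median 0.66). Tlr1 lay lower in all 6 neutron mice, with a difference of -0.99, and Tlr2 differed by 0.93, neither past the threshold of the call.

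Red cell genes did not separate the 2 kinds of radiation at day 1. None of 16 red cell membrane genes (median 0.22), 10 heme enzymes (0.30) or 12 reticulocyte clearance genes (0.24) was called. Of 12 erythroid transcription factors and globin partners (0.13) 1 was called, Bcl11a, at -1.64 to 0.11 after neutrons and 0.78 to 1.84 after x-rays (difference -1.98, SE 0.30, adjusted p = 0.00171). Bcl11a silences fetal globin in red cell precursors and is also made by B cells. Ank1, Alas2, Alad, Gata1, Klf1, Ube2o and Ube2l6 differed by -0.08 to 0.82 and were not called. The list medians of membrane, transcription factor and reticulocyte genes each turned sign in 1 of the other settings.

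Ribosomal protein genes were lower after neutrons, by -0.24 (Rplp0, not called) to -1.09 (Rps3). Of 26 tested, 16 were called lower and 0 higher (median -0.72), 26 of 26 had a negative sign, and in 21 the groups did not overlap. Over all genes tested 7.72% were called lower, and in 9.94% all 6 neutron mice lay below all 6 x-ray mice. List levels were 6.69 to 7.12 in the neutron mice and 7.45 to 7.95 in the x-ray mice, beside medians of 7.80 in controls and 6.94 after 4 Gy x-rays. Rps3 was at 5.25 to 5.54 after neutrons and 6.24 to 6.68 after x-rays, a difference of -1.09 (SE 0.14, adjusted p = 0.000774), and Rps18, Rpl14 and Rpl12 differed by -1.08, -1.02 and -0.92. Leaving out x-ray replicate 2 left 10 members called, and spike-in centring a list median of -0.37 with 0 of 36 tested members called. Splicing factors had 0 of 12 called (median -0.55, which was 0.07 under spike-in centring), with Srsf1 at -0.59 and Srsf2 at 0.11.

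Replication genes were called lower in 10 of 21 tested members (median -0.67), against 7.72% of all genes. Prim1, the primase that starts new DNA strands, had a median of -1.14 after neutrons and -0.12 after x-rays with no overlap, a difference of -1.09 (SE 0.16, adjusted p = 0.00156). Cdt1, which licenses origins, was at 0.55 to 1.06 and 1.63 to 2.03, a difference of -1.04 (SE 0.16, adjusted p = 0.00171). The polymerase subunit Pold1 and the helicase subunit Mcm6 each differed by -0.95. Leaving out neutron replicate 4 or x-ray replicate 2 left 4 members called, and spike-in centring left 0 of 24.

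Mitosis genes were called lower in 6 of 22 tested members (median -0.55, -0.11 under spike-in centring), against 7.72% of all genes. With neutron replicate 4 or x-ray replicate 2 left out, 3 were called lower. Cdc20, an activator of the anaphase-promoting complex, was at -1.26 to -0.79 after neutrons and -0.44 to 0.34 after x-rays, a difference of -0.99 (SE 0.16, adjusted p = 0.00247). Birc5, also called survivin, Ccnb1, which encodes cyclin B1, and the condensin subunit Ncapd2 differed by -0.96, -0.93 and -0.79. Several cell cycle genes were not among them. Ube2c, the ubiquitin-conjugating enzyme of the anaphase-promoting complex, differed by 0.16 (SE 0.51), its activator Fzr1 by 0.34 (SE 0.23), Ccna2 by -0.07 (SE 0.42), Cdc25b by -0.16 (SE 0.45) and Nusap1 by -0.00 (SE 0.45), with adjusted p-values of 0.317 to 0.999. Means of these 5 genes were lower than in controls after either radiation, for example 5.57 in controls, 3.94 after x-rays and 4.10 after neutrons for Ube2c. E2f2, a transcription factor of the cycle that is prominent in red cell precursors, differed by 0.02 (SE 0.38, adjusted p = 0.977).

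The DNA repair genes that were called were lower after neutrons, as were 85.4% of all called genes. Over all genes tested 7.72% were called lower. The list of mismatch, base and nucleotide excision repair holds 24 genes, of which 6 were tested and 4 called lower (median -0.88). They were Exo1, a mismatch repair nuclease, by -1.31, the glycosylase Mutyh by -0.99, Pms2 by -0.88 and Parp1, which senses strand breaks, by -0.88. Under spike-in centring 23 genes of that list passed the filters, 0 were called and their median was 0.07. Of 23 listed double-strand break genes 8 were tested and 1 was called, and it was lower (list median -0.52). The kinases Atm and Chek2 differed by -0.58 and -0.01 and were not called.

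Few targets of p53 were called. In the list of arrest and feedback targets 1 of 16 was called higher and 1 lower (median 0.48). Over all genes tested 1.33% were called higher and 7.72% lower. In the list 15 of 16 had a positive sign. List levels were 0.76 to 1.40 after neutrons and 0.32 to 0.72 after x-rays, without overlap. Within the shared scan date 0 of 16 were called (median 0.46), and with normexp 0 of 17. Plk2, a kinase induced in stress, was at -1.71 to -0.89 after neutrons and -3.71 to -1.63 after x-rays, overlapping groups that differed by 1.39 (SE 0.29, adjusted p = 0.00652), and Sesn1, an inhibitor of growth signalling, differed by -0.88 (SE 0.16, adjusted p = 0.00387). Cdkn1a, the p21 inhibitor of cyclin-dependent kinases, was at -0.32 to 1.32 after neutrons and -0.87 to 0.32 after x-rays, far above its mean of -3.52 in controls in both, and its difference of 1.09 (SE 0.33, adjusted p = 0.033) missed the p of 0.001 that a call needs. Of 5 apoptosis targets 1 was called, Trp53i11, with a difference of -1.19 (SE 0.18, adjusted p = 0.00159), while Bax and Bbc3, which open the way to mitochondrial death, both differed by -0.15. Among 4 damage-induced repair and Gadd45 genes Ddb2, which recognises ultraviolet damage, differed by -0.87 (SE 0.13, adjusted p = 0.00156) and Gadd45a was not called (0.32). The medians of these last 2 lists, -0.15 and -0.17, turned positive in 8 and 5 of 30 settings, spike-in centring among them.

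Liver and metabolic genes were not called as groups. None of 14 hepatocyte genes (median 0.88), 17 genes of fatty acid oxidation (0.68), 19 sterol enzymes (0.60) or 16 antioxidant enzymes (0.41) was called, and Apoa2, Apoc3, Cpt1a, Cpt2, Hmgcs1, Cat and Sod1 differed by 0.36 to 0.79. The hepatocyte median was 1.79 without neutron replicate 4, 0.39 without x-ray replicate 2 and -0.36 without the x-ray arrays of the third date, where the fatty acid and sterol medians were 0.23 and 0.09. Of 6 acute-phase genes Lcn2 alone was called (median 1.51, 2.43 without neutron replicate 4 and 0.49 without the x-ray arrays of the third date). Saa1, the serum amyloid of liver, was at 5.47 to 8.82 after neutrons and 0.05 to 7.39 after x-rays, a difference of 3.05 (SE 1.11, adjusted p = 0.0716), and Saa3 differed by 0.75. Of 41 hepatocyte markers on the array 35 to 41 were well above background in a neutron mouse and 39 to 41 in an x-ray mouse, at a summed level of 6.00 to 13.2 and 8.25 to 12.6, and no defining marker (Alb, Apoa1, Ttr) was at background in any mouse. The fit with the hepatocyte level as a covariate called 1126 genes, 77.7% of them lower, and the arrays with a hepatocyte level above 4 alone gave 324, 84.9% of them lower.

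Markers of other tissues were low in most mice. Of 3 tested muscle genes, 2 of lung epithelium, 3 of adipocytes and 2 of the exocrine pancreas, 0 were called. Over all markers on the array, 5 to 11 of 16 muscle genes were well above background in a neutron mouse and 2 to 8 in an x-ray mouse, with summed levels of -0.54 to 2.62 and -0.73 to 0.10. The lung list was at 0.99 to 1.53 and 1.44 to 2.11 with 3 to 4 and 1 to 6 of 8 genes, and the adipocyte list at 0.91 to 3.82 and 0.98 to 4.33 with 3 to 5 and 3 to 6 of 8 genes. Defining markers were mostly at background, with Myh6 above it in 2 neutron and 1 x-ray mice, Sftpc in 0 and 2, and Adipoq in 0 and 1. The tested genes Myl2, Myl3, Sftpd, Scgb1a1, Fabp4, Plin4 and Cela1 differed by 0.11 to 1.10 and Ctrb1 by 2.45 (SE 1.30, adjusted p = 0.212), where neutron replicate 4 stood at 7.10 and the other neutron mice at most at -1.33.

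**Figure D4:**
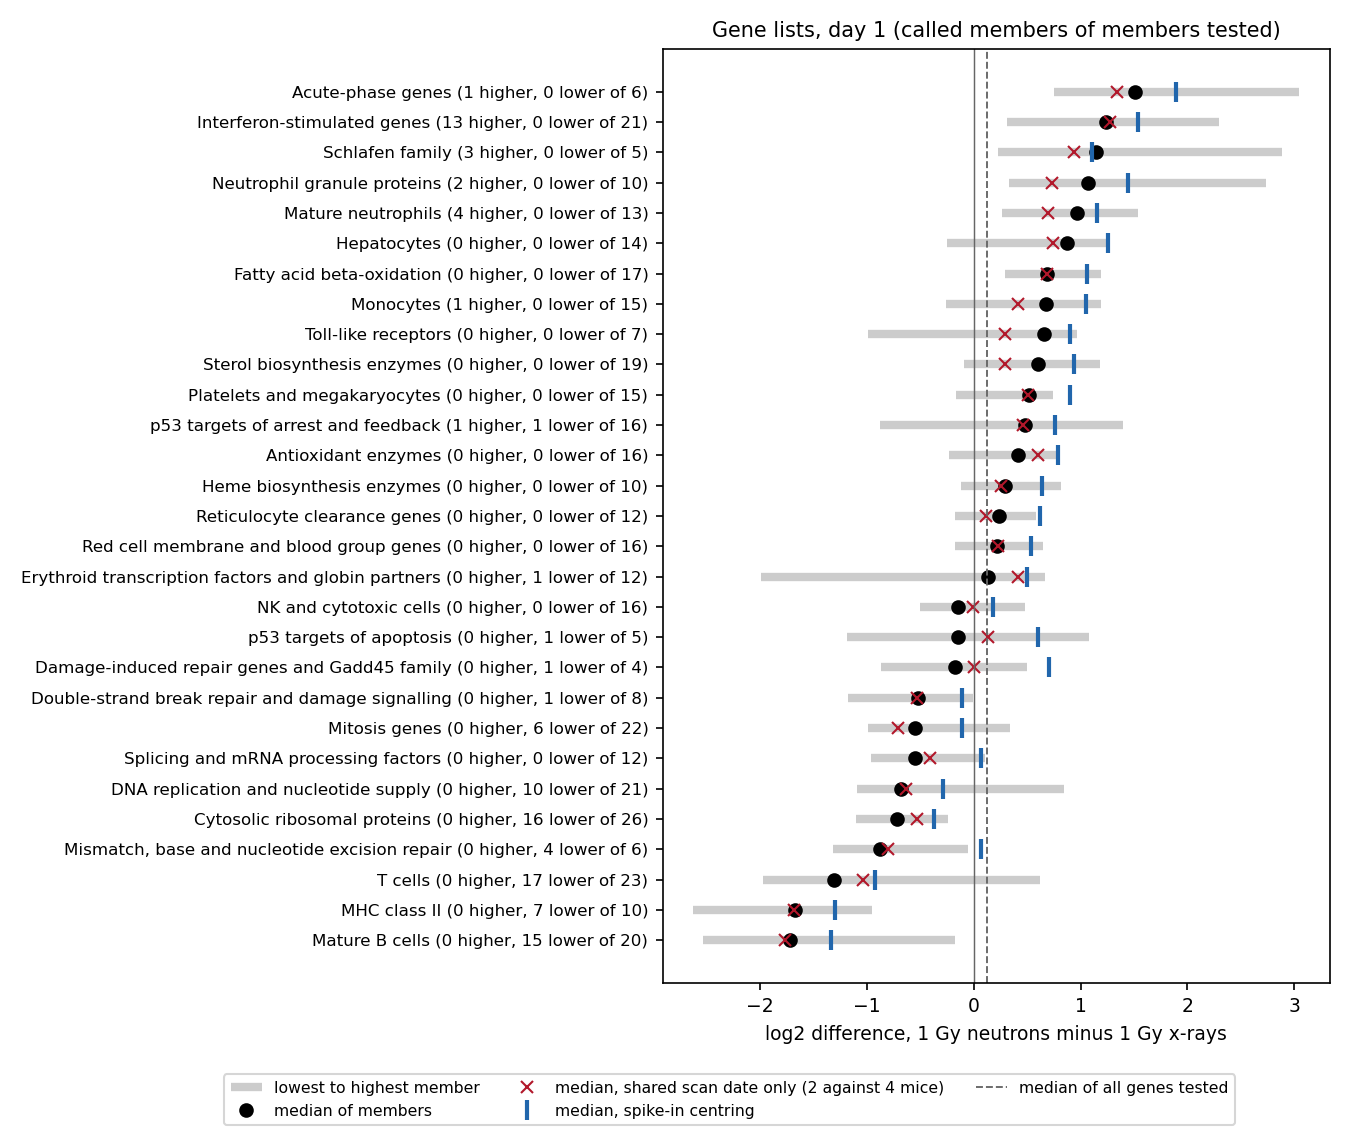
Log2 difference of 1 Gy neutrons minus 1 Gy x-rays at day 1 for 29 gene lists with at least 4 tested members. Grey bars run from the lowest to the highest member, black circles are medians, crosses medians within the shared scan date, blue ticks medians under spike-in centring, and the dashed line is the median of all genes, 0.13. The lists of B cells, MHC class II and T cells lie lowest and the acute-phase, interferon-stimulated and Schlafen lists highest.

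Levels were also set beside the controls of that day. The neutron and x-ray groups share these controls, so the values are given as a description. Of the 839 genes called lower, 532 had an x-ray mean on the same side of the control mean as the neutron mean but nearer to it, 301 had an x-ray mean on the opposite side, and 6 had an x-ray mean farther away on that side. Their median distance from the control mean was -1.03 in the neutron mice, -0.10 in the x-ray mice and -1.42 in mice given 4 Gy x-rays. Of the 144 genes called higher the same counts were 90, 52 and 2, and the medians 1.24, 0.19 and 1.10. Over all 10863 genes tested the counts were 6554, 2129 and 2180. The share with a neutron mean farther out on the same side was thus close to that of all genes. The share with an x-ray mean on the opposite side was larger among called genes than among all, and the share with one farther away smaller.

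Between days 1 and 7 the difference of neutrons minus x-rays changed in 1038 of 10863 genes (9.56%; 6 neutron and 5 x-ray mice at day 7), 970 toward a higher and 68 toward a lower difference at day 7, and 204 of the 1038 were also called at day 1. The split turned under spike-in centring, to 2 higher and 802 lower. Among ribosomal protein genes 25 of 26 were called for this change, with list medians of -0.72 at day 1 and 0.87 at day 7, but 0 of 36 under spike-in centring and 15 of 26 with scan date as a block. Interferon-stimulated and Schlafen genes went the other way in 4 of 21 and 2 of 5 members, with medians of 0.33 and 0.13 at day 7, and with scan date as a block 2 of 21 and 1 of 5 were called. Under spike-in centring 15 of 23 and 6 of 7 were called lower, where nearly all called genes went that way. Slfn4 had a difference of 2.89 at day 1 and 0.65 at day 7, a change of -2.24 (SE 0.51, adjusted p = 0.00379), which with scan date as a block had an adjusted p of 0.0642. B cell and MHC class II genes kept negative medians, -1.48 and -0.95 at day 7, with 1 of 20 and 0 of 10 members called for a change. Pla2g2d differed by -2.24 at day 7 (change 0.34, SE 0.44, adjusted p = 0.621). E2f2, Ccna2, Nusap1, Cdc25b, Ube2c and Fzr1, with differences of 1.16 to 1.67 at day 7, were not called for a change (adjusted p = 0.0213 to 0.173), nor was Cdkn1a (0.336).

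**Figure D5:**
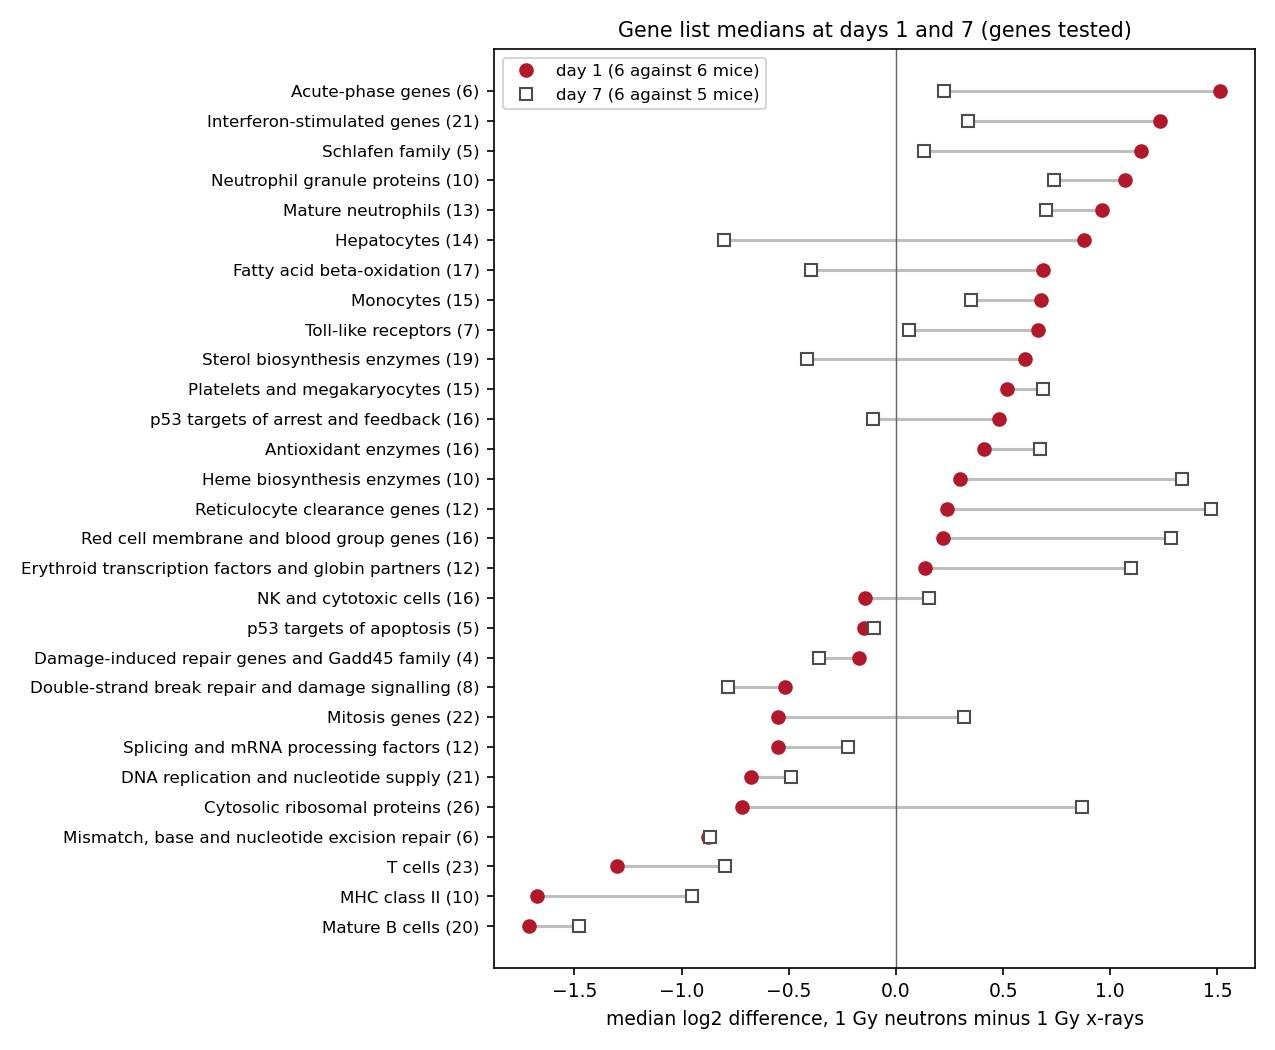
Median log2 difference of 1 Gy neutrons minus 1 Gy x-rays for 29 gene lists at day 1 (circles, 6 against 6 mice) and day 7 (squares, 6 against 5 mice), with the number of tested genes after each name. Ribosomal protein genes run from -0.72 to 0.87 and interferon-stimulated genes from 1.23 to 0.33.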

How the data were processed

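Blood RNA of 1 mouse was hybridized to each Agilent array with 1 dye. The deposited intensity files come from Agilent Feature Extraction 12.0.2, per the file headers, and the authors' scans hold a background-corrected intensity and quality marks for each of 44397 spots, of which 43020 carry 39429 probes; no normalization between arrays was applied. Here intensities were log2-transformed, outlier spots were left out, and the median of an array's detected probes was set to 0. Probes marked dim or outlying in under 25% of spots over the 56 arrays of days 1 and 7 (19808) and at least 1.5-fold from their median on 20% of them (12556) were kept, with the brightest probe per gene (10863 genes). Names came from RefSeq accessions for 28330 probes. Groups were compared with limma 3.58.1 in R 4.3.3, 2-sided, at p below 0.001 and a Benjamini-Hochberg rate below 5%, and adjusted p-values are limma's. The number of arrays limits precision. The fits were tested on simulated data with independent noise and no effect of scan date or liver, so that test does not bear on these. Members and gene lists (33 lists, written by hand) were chosen with earlier results of these data known. Named were the 10 largest differences in each direction among separated genes (overall and without genes that follow liver, r of 0.5 or more), up to 4 called or the first 2 tested members of each list, and 9 fixed genes. A few other genes, named beside counts or in promoters, were chosen after their values were seen. Alternatives covered background, centring, filters, probe choice, the methods' random variance test, scan date, slide, liver level, replicate block and each mouse left out. The log2 table of the whole series was not used. Some genes the rule names are not reported here.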

Additional observations from a re-analysis of the deposited data

Results flagged for a closer look

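In 20 of 280 sets of 6 mice (14 named genes and 6 lists), 1 mouse lay far from the other 5 of its group by Dixon's gap test at the 95% level, where chance gives about 1 in 20. Neutron replicate 4 accounted for most of them. Its levels were 5.44 for Oasl1 (nearest other mouse 4.83), 3.13 for Fpr2 (2.57) and 2.14 for Ccr2 (1.21). Liver genes were low in it, with Saa1 at 5.47 (8.03), Apoa2 at 3.88 (8.98), Apoc3 at -0.90 (6.91) and the hepatocyte list at -0.0316 (5.94), and pancreas genes high, with Cela1 at 3.06 (-1.62), Ctrb1 at 7.10 (-1.33) and the pancreas list at 5.08 (-1.67). The same mouse was high for the neutrophil granule list at 3.36 (1.36) and low for the p53 apoptosis list at 1.94 (2.33).

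Other mice stood apart for single items. Neutron replicate 1 had Ciita at -3.61 (nearest -2.76). Neutron replicate 3 had Ppbp at 7.09 (8.34), Srsf1 at 0.435 (-0.122), Plin4 at -1.90 (-3.07) and the antioxidant list at 4.17 (4.68). X-ray replicate 2 had Ifit1 at 1.51 (0.852), and x-ray replicate 6 had Sftpd at -5.07 (-4.24) and the pancreas list at -3.06 (-2.40).

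By limma's interaction test, 1038 genes differed between days 1 and 7 in their neutron minus x-ray difference, and Slfn4 was one of them, with a change of -2.24.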

How the results depend on the processing

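The 983 genes called at day 1 became 23 with normexp background correction, 82 with spike-in centring, 1548 without the variation filter, 0 with scan date as a block (1882 at an unadjusted p below 0.05) and 635 to 926 with 1 mouse left out, the lowest without x-ray replicate 2. Of the alternatives chosen after seeing the data, 10 were called within the shared date, 324 on arrays with a hepatocyte level above 4 and 371 without the x-ray arrays of the third date. The share lower, 85.4%, became 73.9% with normexp, 91.8% with 75th percentile centring, 43.9% with spike-in centring, 81.7% with quantile normalization, 87.8% without the detection filter, 89.7% with all day 1 groups in 1 fit, 77.7% with the hepatocyte covariate, 70.0% within the shared date and 82.2 to 87.8% with 1 mouse left out. The 1038 genes of the day comparison became 1 with normexp, 610 with quantile normalization, 4801 without the detection filter, 376 with scan date as a block and 783 to 1300 with 1 mouse left out. Their split, 970 higher and 68 lower, became 2 and 802 with spike-in centring, 449 and 161 with quantile normalization and 297 and 827 with dim spots set to missing. The cause of these moves was not tested.

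With the replicate number as a block, 431 genes were called at day 1, 79.6% of them lower, and 519 in the day comparison. The numbers do not pair the mice, since same-numbered mice correlated at -0.451 to 0.511 and 1 of 6 correlated best with its own number.

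Other settings kept the day 1 count within 1.5-fold, between 685 with the detection filter over the 12 arrays and 1156 with 75th percentile centring. No named gene changed sign with a call in the settings run. Calls of named genes were lost for 59 with scan date as a block, 51 within the shared date, 40 with normexp and 32 with spike-in centring. Signal near background limits dim genes, of which the detection filter leaves out only a part. The tested genes Nppa, Plin4 and Scgb1a1, for example, were well above background in 6 neutron mice but in only 4 x-ray mice. The 6 mice a group limit the precision.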
